A study of Homo sapiens with 6 samples.

Results

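The 9 genes IFIT1, IFIT2, IFIT3, IFIH1, IFITM1, ISG15, MX1, PARP9 and DTX3L, all induced by interferon, were followed across 6 microarrays of human cancer cell lines. They were taken by symbol from probe sets (groups of probes read as 1 value) annotated to a single gene, and each of the 9 had 1 such probe set among the 18417 genes measured. The values are RMA log2 intensities, on which 1 unit is a doubling of the signal. The study asked what changes when NRF3, the product of NFE2L3 and a transcription factor of the CNC family, is lowered or raised. HCT116, a colon cancer line, and HCT116-p53KO, the same line lacking p53, received control siRNA or NRF3 siRNA for 48 h. H1299, a non-small cell lung carcinoma line, stably expressed GFP or NRF3 from a plasmid after G-418 selection. All 4 HCT116-family groups had therefore been transfected with an siRNA, and no untransfected cells were analysed here. The sources used here do not say whether the stable H1299 lines were clones or pools, or how many siRNAs were used. With 1 array in each group, the spread within a group is unknown and differences inside a line carry no test. Precision is limited by this number of arrays.

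Interferons signal through surface receptors and JAK kinases to a complex of STAT proteins with IRF9. That complex binds the interferon-stimulated response element (ISRE), a DNA motif before the start of many antiviral genes. IFIT1, IFIT2 and IFIT3 encode tetratricopeptide proteins that bind viral RNA or one another, and IFIH1 encodes MDA5, a cytosolic sensor of long double-stranded RNA. IFITM1 encodes a membrane protein that restricts virus entry, ISG15 a ubiquitin-like modifier, and MX1 a dynamin-like GTPase that blocks viruses. PARP9 and DTX3L encode partner proteins, an ADP-ribosyltransferase family member and an E3 ubiquitin ligase. Epithelial lines can make and answer interferon, so these genes can be read in cultures without immune cells.

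The start regions of these genes are shown because the ISRE is what they share in sequence, although their levels parted. RefSeq windows of 300 bases (250 before to 50 after each annotated start, build GRCh38.p14) were found for 8 of the 9 genes, all but IFIT2. The ISRE core was searched as GAAA, any 2 bases and GAAA, on both strands (so also as TTTC, any 2 bases and TTTC). At least 1 match lay in a window of all 8 genes, against 4.38% of the 27305 genes in the same table, and in 10 of their 12 windows against 3.57% of 35116. Overlapping matches in 1 window were counted once. Stretches that end at the annotated start follow, 5′ to 3′, with the matched letters in capitals. Those of IFITM1 and DTX3L run 4 bases past it because a match crosses the start.
IFIT1, chr10:89392473-89392622, plus strand: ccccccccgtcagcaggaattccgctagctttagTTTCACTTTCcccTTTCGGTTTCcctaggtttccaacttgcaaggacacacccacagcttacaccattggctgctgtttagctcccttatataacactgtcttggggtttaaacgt
IFIT3, chr10:89327837-89327996, plus strand: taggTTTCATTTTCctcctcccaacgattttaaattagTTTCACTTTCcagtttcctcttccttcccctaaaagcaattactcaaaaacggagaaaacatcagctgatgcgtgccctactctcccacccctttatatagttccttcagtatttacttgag
IFIH1, chr2:162318685-162318724, minus strand: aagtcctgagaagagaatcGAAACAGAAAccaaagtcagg
ISG15, chr1:1013347-1013496, plus strand: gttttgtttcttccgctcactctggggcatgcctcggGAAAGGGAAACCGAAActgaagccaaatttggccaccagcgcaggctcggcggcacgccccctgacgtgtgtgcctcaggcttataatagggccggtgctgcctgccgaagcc
IFITM1, chr11:313920-314043, plus strand: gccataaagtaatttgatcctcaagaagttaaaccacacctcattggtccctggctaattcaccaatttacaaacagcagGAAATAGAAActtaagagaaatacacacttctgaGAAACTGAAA
DTX3L, chr3:122564301-122564341, plus strand: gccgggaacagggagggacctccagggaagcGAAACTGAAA
The DTX3L stretch starts next to an annotated start of PARP9 on the minus strand, with 37 bases between the starts, so both genes had the same match. In IFIT1 the first match began 116 bases before the start and the other 103 bases before it. In ISG15 a pair of overlapping matches began 113 and 107 bases before the start. In MX1 a match began 12 bases after one annotated start and another 196 bases before a different one. The STAT-binding letters TTCNNNGAA were found in windows of IFITM1 and MX1, overlapping an ISRE match in both, against 9.38% of genes. The letters TGACNNNGC, the core of the antioxidant response element that CNC factors bind, were found in windows of IFIT3 and PARP9, against 16.1% of genes. A match is a description of these letters and not a measured binding site.

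Facts of the whole series set how these levels can be read. NFE2L3 went from 8.97 to 6.62 with siRNA in HCT116, from 8.71 to 7.15 in HCT116-p53KO and from 8.18 to 10.20 with the NRF3 plasmid in H1299, as labelled. The lowest array median was 6.95 in the HCT116 family and the highest 6.08 in H1299, and sorted values differed by 0.779 to 0.805 on average between these sets against at most 0.0703 within them. Comparisons were therefore kept inside a line or made between HCT116 and HCT116-p53KO. On the HCT116-family arrays the epithelial marker EPCAM lay at 10.91 to 11.42 and CDX2 at 8.39 to 8.69, while KRT20, CDH17, VIL1, LGR5 and CEACAM5 were under 6. Of the 5 colon markers at 6 or more, 4 were lower with siRNA in HCT116 (median -0.51) and 3 in HCT116-p53KO (median -0.44). Among all genes at 6 or more, 6792 of 14034 were lower in HCT116 and 6773 of 13680 in HCT116-p53KO. CDH1 differed by -0.71 and -0.48, KRT18 by -0.58 and -0.44, KRT8 by -0.51 and -0.73, EPCAM by -0.51 and 0.14, and CDX2 by 0.09 and 0.14. Their part in the differences given here was not tested. VIM lay at 12.08 to 12.45 in H1299, and the lung markers NKX2-1, SFTPC, SFTPB and NAPSA were under 6 there. Of 6 leukocyte markers with values, 1 or 2 reached 6 on any array. TYROBP, which these cells should lack, exceeded 6 on every array and reached 8.13, so a level over 6 is not by itself a sign of expression. A level under 6 is low on this scale and the size of a difference there is uncertain. MX1, IFIT2 and IFIT3 lay under 6 on all 6 arrays, and only ISG15 and DTX3L lay at 6 or more on all of them. Of all genes, 72.6% to 75.2% reached 6 on each HCT116-family array and 58.7% to 59.8% on each H1299 array.

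The HCT116 control siRNA array was set against the other 3 HCT116-family arrays, gene by gene. It was the highest of the 4 for 5 of the 9 genes (IFIT1, IFIT3, IFIH1, PARP9 and DTX3L), against 20.2% of all 18417 genes. For 4 of them (IFIT1, IFIT3, IFIH1 and DTX3L) it exceeded the next array by at least 1.5-fold (0.58 on the log2 scale), against 0.44% of all genes. Among the 6 genes that reached 6 on at least 1 of these arrays, 3 did so, against 0.537% of 14148. IFIT1 and IFIH1 passed that floor through the HCT116 control array alone, so the floor favoured this count, which supports nothing. HCT116-p53KO control siRNA was highest by 1.5-fold for IFITM1 alone (0.0923% of all genes). By that margin no gene of the 9 was highest with NRF3 siRNA in HCT116 (0.652% of all genes) or in HCT116-p53KO (0.402%). None was lowest with control siRNA in HCT116 (0.076%) or HCT116-p53KO (0.331%), or with NRF3 siRNA in HCT116 (1.23%) or HCT116-p53KO (0.255%). The 9 genes were chosen with results of these arrays known, so these counts describe them and test nothing.

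The genes with a high control array were of different kinds. For IFIT1 the HCT116 control array was highest at 6.65 and the HCT116 NRF3 siRNA array lowest at 5.29. Both HCT116-p53KO arrays lay between them, at 5.81 and 5.85. For IFIT3, IFIH1 and DTX3L the HCT116 NRF3 siRNA array was second, and both HCT116 arrays lay above both HCT116-p53KO arrays. That separation of the lines held for 6 of the 9 genes (IFIT2, IFIT3, IFIH1, MX1, PARP9 and DTX3L), against 21.6% of all genes. It reached 1.5-fold for 4 (IFIT2, IFIT3, PARP9 and DTX3L), against 1.29%.

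**Figure D1:**
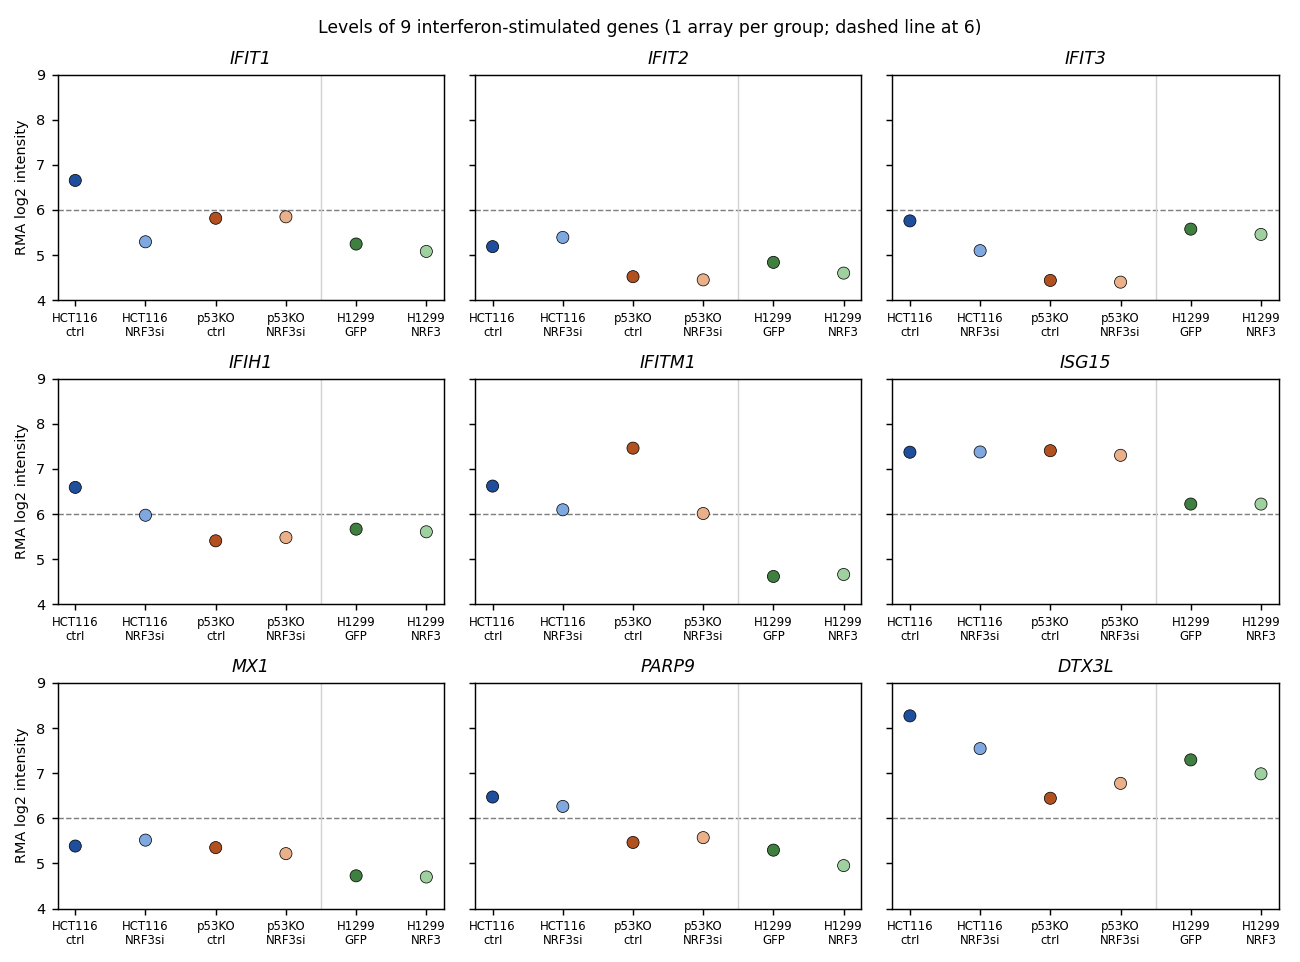
Levels of the 9 genes (RMA log2 intensity, vertical axis) on the 6 arrays (horizontal axis), 1 point per array and no error bars because each group had 1 array; ctrl is control siRNA, NRF3si is NRF3 siRNA and p53KO is HCT116-p53KO. The dashed line marks 6, and the vertical grey line separates the H1299 arrays, whose scale differs. IFIT1 was high on the HCT116 control array alone (6.65 against 5.29 to 5.85), while DTX3L stepped from 8.27 and 7.54 in HCT116 to 6.44 and 6.77 in HCT116-p53KO.

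Among the IFIT genes, IFIT1 differed most with siRNA. IFIT1 was at 6.65 with control and 5.29 with NRF3 siRNA in HCT116, at 5.81 and 5.85 in HCT116-p53KO, and at 5.24 with GFP and 5.08 with NRF3 in H1299. It was 2.57-fold lower with NRF3 siRNA in HCT116 (-1.36) and differed by 0.03 in HCT116-p53KO. With NRF3 siRNA the order of the lines was turned, with IFIT1 0.55 higher in HCT116-p53KO than in HCT116. Only 1 of its 6 levels reached 6.

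IFIT3, the partner that stabilises IFIT1, was at 5.76 with control and 5.10 with NRF3 siRNA in HCT116, at 4.44 and 4.40 in HCT116-p53KO, and at 5.57 and 5.46 in H1299. It was lower by 0.66 with NRF3 siRNA in HCT116, by 0.04 in HCT116-p53KO and by 1.32 in HCT116-p53KO against HCT116 with control siRNA. IFIT2, which also binds RNA, was at 5.19 and 5.39 in HCT116, 4.52 and 4.45 in HCT116-p53KO, and 4.84 and 4.6 in H1299. Unlike in IFIT1 and IFIT3, the HCT116 control array of IFIT2 lay below its NRF3 siRNA array, by 0.20, while IFIT2 shared the step between the lines with IFIT3 (-0.67 with control siRNA). IFIT1, IFIT2 and IFIT3 lie in a cluster on chromosome 10, with IFIT1B between IFIT3 and IFIT1, and within the annotated span of LIPA, a lysosomal lipase gene at 8.50 to 8.88 on the HCT116-family arrays. LIPA differed by -0.13 with siRNA in HCT116 and -0.15 between the control arrays, so it did not follow IFIT1 or IFIT3. IFIT5, which follows IFIT1, was higher with siRNA, by 0.50 in HCT116 and 0.48 in HCT116-p53KO. IFIT1B, under 6 on all arrays, differed by 0.72 and -0.20.

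IFIH1, the RNA sensor, had graded levels. It was at 6.59 with control and 5.97 with NRF3 siRNA in HCT116, at 5.41 and 5.48 in HCT116-p53KO, and at 5.67 and 5.61 in H1299. The difference with siRNA was -0.62 (1.53-fold) in HCT116 and 0.07 in HCT116-p53KO, and the control arrays differed by -1.18 between the lines (2.27-fold lower in HCT116-p53KO). GCA, its neighbour on chromosome 2, was named after its values were seen. It too was lower in HCT116-p53KO with control siRNA (4.09 against 6.62), but with NRF3 siRNA in HCT116 it was higher by 0.25.

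PARP9 and DTX3L, which form a complex, differed together between the lines and less so with siRNA. DTX3L was at 8.27 with control and 7.54 with NRF3 siRNA in HCT116, at 6.44 and 6.77 in HCT116-p53KO, and at 7.29 with GFP and 6.99 with NRF3 in H1299. It was 3.55-fold lower in HCT116-p53KO than in HCT116 with control siRNA (-1.83), the largest such difference of the 9 genes, and 0.77 lower with NRF3 siRNA. NRF3 siRNA went with a lower level in HCT116 (-0.73) and a higher one in HCT116-p53KO (0.33). PARP9 was at 6.47 and 6.26 in HCT116, 5.46 and 5.57 in HCT116-p53KO, and 5.29 and 4.95 in H1299. Its control arrays differed by -1.01, while its siRNA differences were -0.21 in HCT116 and 0.11 in HCT116-p53KO. The signs of PARP9 matched those of DTX3L in all 3 lines and its sizes were smaller with siRNA. The annotated spans of both genes overlap at the start region shown above, and whether their probe sets share signal was not tested.

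IFITM1 had a pattern of its own. It was at 6.62 with control and 6.10 with NRF3 siRNA in HCT116, at 7.46 and 6.01 in HCT116-p53KO, and at 4.62 and 4.66 in H1299. Here the HCT116-p53KO control array was the highest, by 0.84 over HCT116, and both NRF3 siRNA arrays lay within 0.08 of each other. The difference with siRNA was -1.45 (2.73-fold lower) in HCT116-p53KO and -0.53 in HCT116, and no other gene of the 9 was lower by 1.5-fold in HCT116-p53KO. Its neighbours and close relatives IFITM2 and IFITM3, at 10.52 to 11.70 on the HCT116-family arrays, differed with siRNA by -0.10 to 0.22.

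ISG15 and MX1 differed least. ISG15 was at 7.37 with control and 7.38 with NRF3 siRNA in HCT116, at 7.41 and 7.30 in HCT116-p53KO, and at 6.22 on both H1299 arrays. Its range over the 4 HCT116-family arrays was 0.10, although its ISRE matches lie close to the start as in IFIT1. MX1 was at 5.39 and 5.52 in HCT116, 5.35 and 5.22 in HCT116-p53KO, and 4.73 and 4.70 in H1299, a range of 0.30 over the 4 arrays and under 6 throughout. ISG15 and MX1 did not stand out on the HCT116 control array, although differences at a level as low as that of MX1 are uncertain. Whether the cells answered interferon was not tested.

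Counted over all 9 genes, NRF3 siRNA in HCT116 left 4 lower by at least 1.5-fold (IFIT1, IFIT3, IFIH1 and DTX3L), against 4.85% of all genes, and 0 higher, against 2.8%. The median difference was -0.53, beside 0.04 over all genes. In HCT116-p53KO, 1 gene was lower by 1.5-fold (IFITM1; background 1.99%) and 0 higher (2.95%), with a median of -0.04 beside -0.01. In H1299 no gene reached 1.5-fold either way (3.56% lower and 3.56% higher among all genes). There 7 of the 9 were lower with NRF3, ISG15 was equal and IFITM1 was 0.04 higher, and PARP9 differed most (-0.34). The median over the 9 was -0.12, beside -0.01 over all genes. Among all genes at 6 or more in H1299, 5649 of 11304 were lower. Of the 2 among the 9 at that level, DTX3L was lower and ISG15 equal. Only 2 of the 9 genes reached 6 on an H1299 array, where 59.8% of all genes did so with GFP and 58.7% with NRF3. Bulk RNA cannot tell fewer cells of a kind from less RNA per cell. With the planned floor of 6 on at least 1 of both arrays, the medians were -0.57 over 6 genes in HCT116, -0.10 over 3 in HCT116-p53KO and -0.15 over 2 in H1299. IFIT1 and IFIH1 passed that floor through the control array alone and had to be lower, so those medians support nothing.

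**Figure D2:**
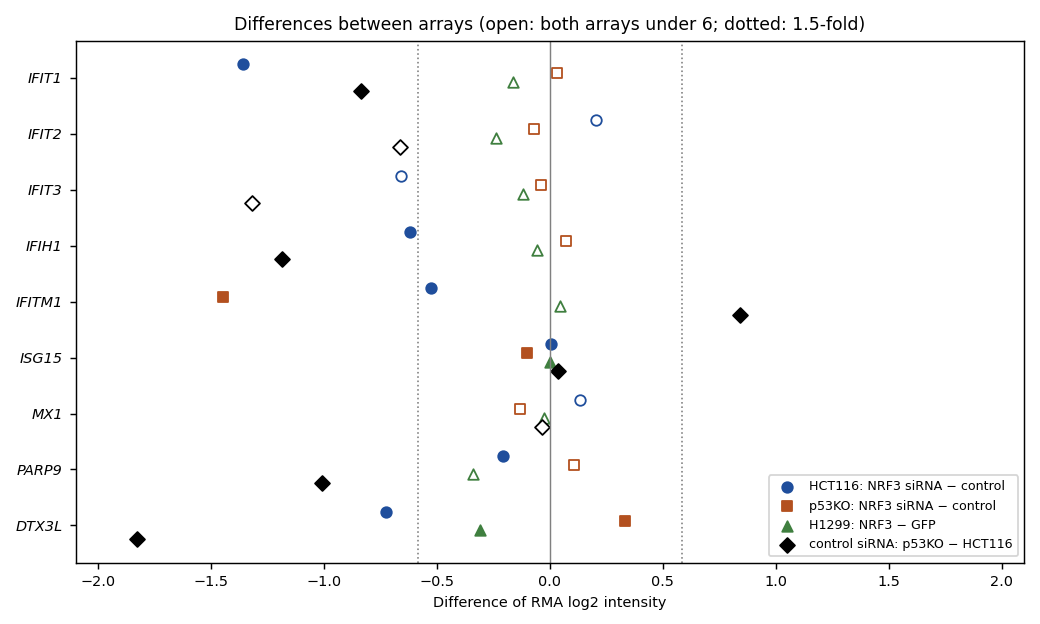
Differences of RMA log2 intensity (horizontal axis) for each of the 9 genes (vertical axis) in 4 comparisons of 2 arrays each, 1 point per comparison, without error bars. Open symbols mark pairs with both arrays under 6, and dotted lines mark 1.5-fold. The siRNA points of HCT116 reach from -1.36 (IFIT1) to 0.20 (IFIT2), while 8 of the 9 points of HCT116-p53KO lie between -0.13 and 0.33 and IFITM1 lies at -1.45.

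The siRNA difference in HCT116 was set against that in HCT116-p53KO, which share no array. It was lower in HCT116 by at least 1.5-fold for 4 genes (IFIT1 by -1.39, DTX3L by -1.06, IFIH1 by -0.69 and IFIT3 by -0.62), against 3.79% of all genes. It was higher for 1 gene, IFITM1 (0.92), against 3.93%. With 1 array per group the difference between the lines could not be tested. The 2 control siRNA arrays differed more widely. In HCT116-p53KO, 6 of the 9 genes were lower by 1.5-fold (IFIT1, IFIT2, IFIT3, IFIH1, PARP9 and DTX3L; background 2.98%) and IFITM1 was higher (background 0.885%), with a median of -0.84. Between the NRF3 siRNA arrays 4 genes were lower (IFIT2, IFIT3, PARP9 and DTX3L; background 4.78%) and 0 higher (background 4.54%), with a median of -0.49. These comparisons share arrays with the siRNA comparisons, and the HCT116 control array enters the first of each.

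**Figure D3:**
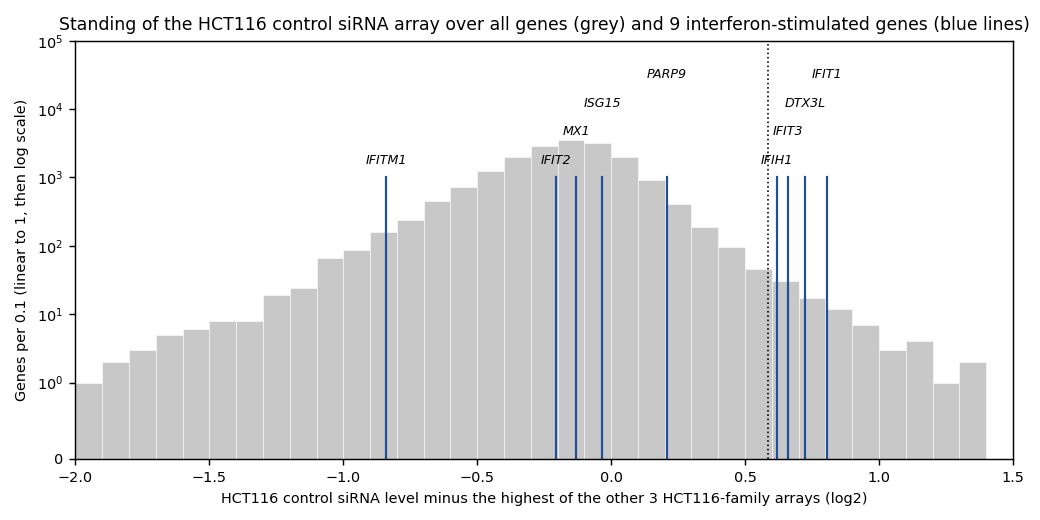
Number of genes (vertical axis, linear to 1 and logarithmic above) by how far the HCT116 control siRNA level lay above the highest of the other 3 HCT116-family arrays (horizontal axis, log2; negative values mean that another array was higher). Genes below -2 fall outside the axis, blue lines mark the 9 genes and the dotted line marks 1.5-fold. IFIH1 (0.62), IFIT3 (0.66), DTX3L (0.73) and IFIT1 (0.81) lie beyond it with 0.44% of the 18417 genes, and IFITM1 lies at -0.84.

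limma was fitted to the 4 HCT116-family arrays with cell line as a block, so that the lines served as replicates, and p-values were adjusted by Benjamini-Hochberg over 14148 genes. With NRF3 siRNA IFITM1 fell by 0.99 ± 0.16 (SE; adjusted p = 1.7e-07) and IFIT1 fell by 0.66 ± 0.16 (SE; adjusted p = 0.00123). Calls of falling genes made up 5.43% of all genes and calls of rising genes 4.45%. IFITM1 was lower in 2 of 2 lines, whereas the call of IFIT1 rested on HCT116. IFIT1 reached the floor of 6 through the HCT116 control array alone, so its entry into the fit favoured a fall and the call is no independent support. DTX3L (adjusted p = 0.582), IFIH1 (0.358), ISG15 (0.939) and PARP9 (0.938) did not pass, and IFIT2, IFIT3 and MX1 were not tested because all 4 levels were under 6. Both calls depend on how the spread is shared among genes: with the prior of the 6-array fit the adjusted p was 0.163 for IFITM1 and 0.439 for IFIT1, and with each gene's own residual 0.715 and 0.824. IFIT1 also missed the threshold without the floor (0.0694) and after repeated quantile normalization (0.222). Over all 6 arrays, as more minus less NRF3, limma called 0 of the 6 genes tested at an adjusted p of 0.05 (1 at an unadjusted p of 0.05, IFITM1 at 0.67 ± 0.24 (SE), adjusted p = 0.381), and 1 of 14492 genes in all (0.0069% rose, 0% fell).

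The wider interferon pathway was described with 9 lists holding 121 other genes, of which 110 had a value and 84 were tested over the 4 arrays. limma, with the same block, found that 6 fell (IFNE, ERAP1, JAK1, IFNAR1, PIAS1 and PARP12) and 2 rose (IFIT5 and USP18), beside the 5.43% and 4.45% above. After repeated quantile normalization 4 of 81 fell (IFNE, JAK1, IFNAR1 and PIAS1) and 1 rose (IFIT5). Of all 13308 genes in that fit, 444 fell and 415 rose. With the prior of the 6-array fit limma called 0 of the 14148 genes (1822 at an unadjusted p of 0.05). By size, 9 of 84 were lower and 1 higher by 1.5-fold with siRNA in HCT116 (6.02% and 2.71% of all genes at 6 or more), and 2 of 81 lower and 3 higher in HCT116-p53KO (2.38% and 3.63%). In H1299 5 of 67 were lower and 2 higher with NRF3 (4.2% and 4.82%). In HCT116-p53KO against HCT116, 12 of 83 were lower and 0 higher with control siRNA (3.45% and 0.868%), and 12 of 83 and 0 with NRF3 siRNA (4.75% and 5.6%). Among the ligands, IFNE, an epithelial type I interferon, fell by 2.22 ± 0.16 (SE, adjusted p = 3.82e-38), from 6.90 to 4.35 in HCT116 and from 6.07 to 4.19 in HCT116-p53KO. IFNE reached the floor of 6 through the control siRNA arrays alone, so its entry into the fit favoured a fall. Its SE is the one pooled over genes. IFNB1 lay under 6 on all arrays. IFNL1 differed by 0.42 in HCT116 and -0.41 in HCT116-p53KO, IFNL2 by 0.32 and 0.04, and IFNL3 by 0.26 and -0.24.

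Receptor genes were lower with siRNA in 6 of 6 cases in both lines, where 6792 of 14034 genes at 6 or more were lower in HCT116 and 6773 of 13680 in HCT116-p53KO. They had medians of -0.36 and -0.27 beside 0.01 and 0.00 over all genes at 6 or more, and 1 of the 6 passed. IFNGR1 was lower by hardly any amount in HCT116 (-0.0009). IFNAR1, a chain of the type I receptor, was at 8.88 and 8.01 in HCT116 and 8.93 and 8.46 in HCT116-p53KO, and fell by 0.67 ± 0.16 (SE, adjusted p = 0.0011). IFNAR2 differed by -0.48 and -0.10, IFNLR1, of the type III receptor, by -0.39 and -0.35, and IFNGR2 by -0.29 and -0.21. The kinase gene JAK1 fell by 0.68 ± 0.16 (SE, adjusted p = 0.000903), with -0.67 in HCT116 and -0.69 in HCT116-p53KO. IRF9, the DNA-binding partner of the STAT proteins, differed by -0.50 and -0.31 (adjusted p = 0.097), IRF1 by -0.45 and 0.22, IRF2 by -0.43 and -0.10, and IRF7 by 0.09 and -0.03. In H1299 JAK1 differed by 0.27 and IFNAR1 by 0.11.

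Sensors and effectors outside the 9 genes repeated the step between the lines in places. TLR3, the endosomal sensor of double-stranded RNA, was at 7.76 and 7.04 in HCT116 and 5.46 and 5.38 in HCT116-p53KO, in the order of IFIT3. SAMD9, an antiviral effector, was at 7.20 and 6.49 in HCT116 and 4.48 and 4.86 in HCT116-p53KO, in the order of DTX3L. PARP12, an antiviral relative of PARP9, was at 9.44 and 8.80 in HCT116 and 8.28 and 7.93 in HCT116-p53KO. With IFNE these were the 4 of 84 pathway genes whose HCT116 control array was highest by 1.5-fold (background 0.537%). Another group, with both HCT116 arrays above both HCT116-p53KO arrays by 1.5-fold, held 7 of the 84 (background 1.53%): TLR3, SAMD9, STING1, SOCS1, IFI35, LGALS3BP and PSMB9. STING1, an adaptor of DNA sensing, differed by -0.88 between the control arrays and by 0.18 with siRNA in HCT116, and SOCS1, an inhibitor of JAK signalling, by -1.16 and -0.29. IFI35 differed by -1.54 and -0.09, and LGALS3BP by -1.42 and 0.20. These genes were picked for their difference between the lines, which therefore had to be large.

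In the other lists, 21 further effectors at 6 or more had a median of -0.08 with siRNA in HCT116, with 2 lower by 1.5-fold (SAMD9 and EIF2AK2, which encodes the kinase PKR; EIF2AK2 was named after its values were seen) and 0 higher. Antigen presentation genes had a median of 0.17, with ERAP1, a peptide-trimming protease, lower by 1.09 and APOL1, an apolipoprotein, higher by 0.66. B2M, the class I light chain, differed with siRNA by 0.01 in HCT116 and 0.59 in HCT116-p53KO, and by -1.10 between the control arrays. On the list for ISG15 conjugation, the ISG15-removing USP18 differed by 0.06 and 0.90, and UBE2L6, which carries ISG15, by 0.58 and 0.18. UBA7, which activates ISG15, differed by -0.54 and 0.01, and HERC6 by 0.10 and 0.40. HERC5, the main ISG15 ligase, differed by 0.18 and 0.38. Of these 5 genes, 4 were higher and UBA7 lower with siRNA in HCT116, and 5 of 5 were higher in HCT116-p53KO (median 0.38). Among all genes at 6 or more, 7241 of 14034 were higher in HCT116 and 6902 of 13680 in HCT116-p53KO. Of the 5 genes on the ISG15 conjugation list only USP18 passed the limma test, a call that rested on HCT116-p53KO. ISG15 itself differed by 0.01 and -0.10. In H1299 HERC6 was lower with NRF3 by 0.90 and IFIT5 higher by 0.77.

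**Figure D4:**
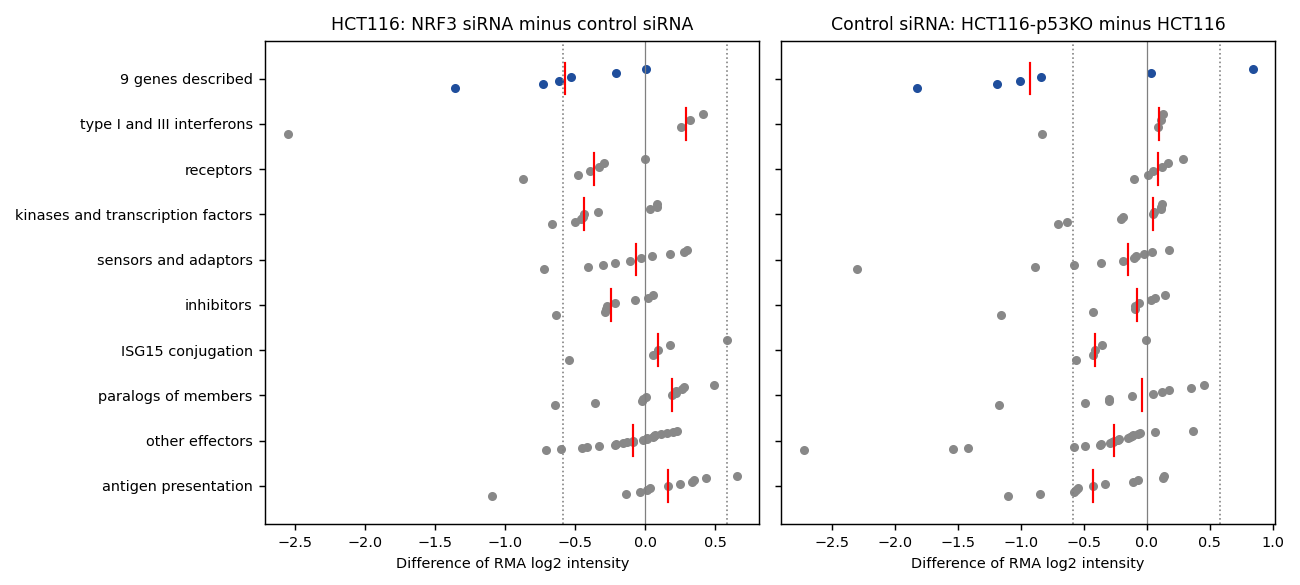
Differences of RMA log2 intensity (horizontal axis) for the 9 genes (blue) and 9 lists of pathway genes (grey, vertical axis), for genes that reached 6 on either array; each point is 1 gene, red lines are list medians and dotted lines mark 1.5-fold. The left panel shows NRF3 siRNA minus control siRNA in HCT116, where IFNE lies at -2.55, and the right panel shows HCT116-p53KO minus HCT116 with control siRNA, where SAMD9 lies at -2.72.

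Genes with the most similar pattern were sought over the 4 HCT116-family arrays, by the root mean square distance of centred levels from the mean profile of the 9 genes. That profile was 0.47 for HCT116 control, 0.06 for HCT116 NRF3 siRNA, -0.19 for HCT116-p53KO control and -0.33 for HCT116-p53KO NRF3 siRNA. The nearest were FN3K (0.020), RPS6KA2 (0.022), CFAP70 (0.022), FRMD6 (0.026) and IRF2 (0.033), each closer than any of the 9, which lay 0.187 (IFIH1) to 0.649 (IFITM1) from their own mean. The closest pairs among the 9 were ISG15 with MX1 (0.087), IFIT3 with IFIH1 (0.095) and IFIH1 with PARP9 (0.145). The farthest pair was IFITM1 with DTX3L (1.05). By these pair distances the 9 genes had no single pattern, and none lay closer than 0.187 to their mean profile. Distances within other sets of genes are not given beside them.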

How the data were processed

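Total RNA of 6 groups (1 array each) was hybridised to Affymetrix arrays. The authors deposited log2 intensities for 33297 probe sets. The submitters' processing notes name RMA and Affymetrix Expression Console, without versions. The sources used here do not say which arrays were normalized together. RMA subtracts background, makes the arrays' distributions alike and summarises probes. A low level can be compressed, and the size of a difference there is uncertain.

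Names came from the annotation table of the array (19460 probe sets had 1 symbol, 1754 several and 12083 were not listed). Entrez numbers of 19429 matched RefSeq of GRCh38.p14. Where a gene had several probe sets, that with the highest mean over the 6 arrays was used. Differences of log2 values were counted at 1.5-fold, over all genes and over those at 6 or more. The limma model (version 3.58.1, R 4.3.3) held cell line as a block (1 residual degree of freedom over 4 arrays, where the spread was pooled fully over genes, and 2 over 6) and was tested on simulated data. p-values are two-sided. In the main fit over 4 arrays they use a spread between lines pooled over genes, so every gene had the same SE. They do not measure a gene's own spread between lines there, and none measures spread within a group.

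Named were the 9 genes, NFE2L3, up to 4 genes of each list by largest difference, IFNE and named IRF genes, and the 5 nearest patterns. LIPA, GCA, IFIT1B, HERC5, IFITM2, IFITM3, IFNB1 and IFNGR1 were added after their values were seen. The genes and lists were chosen with earlier results of these data known. The 11 list genes without a value, among them some that the rule would name, are not analysed here. Alternatives were other floors, size thresholds, normalizations, priors, a threshold of 0.10 on adjusted p, and fits without each line. Sequences are from RefSeq.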

Additional observations from a re-analysis of the deposited data

Results flagged for a closer look

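DTX3L differed in opposite directions in the HCT116 lines. As control siRNA minus NRF3 siRNA it was at 0.73 in HCT116 and at -0.33 in HCT116-p53KO, which is 1.06 apart. With 1 array per group the difference between the lines was not tested. Outliers within a group could not be sought with 1 array each.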

How the results depend on the processing

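The planned medians over genes at 6 or more were -0.57 (NRF3 siRNA, HCT116), -0.10 (NRF3 siRNA, HCT116-p53KO), -0.15 (H1299), -0.92 (HCT116-p53KO minus HCT116, control siRNA) and -0.39 (the same, NRF3 siRNA). Between the control arrays, IFIT1, IFIH1 and PARP9 passed the floor through HCT116 alone and had to be lower in HCT116-p53KO. PARP9 did so between the NRF3 siRNA arrays too. The medians between the lines therefore support nothing, like those with siRNA above. With a floor of 7, which left 1 to 3 genes, the planned medians became -0.36, -0.78, -0.31, 0.034 and -0.42, so the control comparison changed sign. Loess correction gave -0.67 in HCT116 and -0.27 between the NRF3 siRNA arrays. The mean gave -0.41 in HCT116-p53KO and -0.66 between the control arrays. No floor gave -0.49 between the NRF3 siRNA arrays. Leaving out DTX3L, an alternative chosen after seeing the data, gave -0.78 in HCT116-p53KO, 0 in H1299 and -0.082 between the NRF3 siRNA arrays. All other alternatives moved these medians by at most 0.1. The 3 genes with the HCT116 control array highest, a count that the floor favoured, became 1 at a floor of 7 and 0 at 2-fold. The 2 limma calls over 4 arrays became 1 (IFITM1) without a floor, at a floor of 7 and after repeated quantile normalization, and 0 with the prior of the 6-array fit or each gene's own residual. The 0 calls over 6 arrays became 2 without H1299 (range 0 to 2 on leaving out each line). Without H1299 the fit is the 4-array fit with the sign turned, so these are the same 2 calls. Of 27 siRNA and plasmid differences of single genes, 0 changed sign from a size of 0.1 or more, and loess correction moved 7 by over 0.1. Both limma fits paired the arrays of a line through the cell line block, and no fit without it was run.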
